A study of Mus musculus with 4 samples.

Results

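The 29 genes described here make, sense, move and clear cholesterol, and they were taken by symbol from the 24490 gene entries listed in each library. They comprise 17 enzymes of synthesis, 3 regulators (Srebf1, Srebf2 and Insig1) and 9 genes of transport and turnover, and each was found as a single entry. RNA came from the amygdala of mice of a single genotype, NpyCre/+;TRAPlox/lox, so that both groups carried the same alleles. In translating ribosome affinity purification (TRAP), RNA on tagged ribosomes is precipitated from the cells in which Cre has acted, here under the Npy driver, and is set against the total RNA of the same tissue. There were 2 immunoprecipitate (IP) libraries and 2 input libraries, each from a pool of 3 mice, and the labels used here give neither the age nor the sex of the animals. RNA was taken from both sides of the amygdala, the IP and input of a replicate number are matched, and the sources used here do not describe the tagged allele further. No library of Cre-negative tissue was analysed here, so RNA that is carried over without the tag was not measured.

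Brain cholesterol is made almost wholly within the brain, because lipoproteins of the blood do not cross the blood-brain barrier. Acetyl-CoA is built up through mevalonate and farnesyl diphosphate to squalene, which is closed to lanosterol and trimmed to cholesterol. When sterols are scarce, the transcription factors encoded by Srebf1 and Srebf2 are released from the endoplasmic reticulum, where the product of Insig1 otherwise holds them, and switch on these enzymes. Astrocytes release cholesterol on apolipoprotein E particles, neurons take the particles up through receptors such as Lrp1, and neurons dispose of the excess by an oxidation that Cyp46a1 carries out.

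The stretch before the transcription start is shown for 4 members, because it can hold the short motifs through which synthesis genes are known to be switched on. Whether these motifs bear on the changes between IP and input was not tested. Each is the 250 bases 5′ of the start in RefSeq on GRCm38.p6, the assembly of mm10, read along the gene's strand. Capitals mark matches, on either strand, to a sterol response element (TCACNCCAC) or to a CCAAT box (CCAAT, read as ATTGG on the other strand). Hmgcs1 lies at chr13:119690101-119690350 (plus strand), Msmo1 at chr8:64733579-64733828 (minus strand), Srebf2 at chr15:82147019-82147268 (plus strand) and Apoe at chr7:19699189-19699438 (minus strand).
Hmgcs1: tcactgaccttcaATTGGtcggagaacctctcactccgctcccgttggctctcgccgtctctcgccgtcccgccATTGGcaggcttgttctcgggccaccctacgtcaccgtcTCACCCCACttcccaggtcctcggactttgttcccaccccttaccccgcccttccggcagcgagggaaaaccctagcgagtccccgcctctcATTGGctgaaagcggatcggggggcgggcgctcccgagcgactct
Msmo1: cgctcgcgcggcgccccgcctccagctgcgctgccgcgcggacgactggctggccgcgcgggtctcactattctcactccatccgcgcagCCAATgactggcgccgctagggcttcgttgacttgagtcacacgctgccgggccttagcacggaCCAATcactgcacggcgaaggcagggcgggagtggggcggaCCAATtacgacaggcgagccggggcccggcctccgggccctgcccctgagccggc
Srebf2: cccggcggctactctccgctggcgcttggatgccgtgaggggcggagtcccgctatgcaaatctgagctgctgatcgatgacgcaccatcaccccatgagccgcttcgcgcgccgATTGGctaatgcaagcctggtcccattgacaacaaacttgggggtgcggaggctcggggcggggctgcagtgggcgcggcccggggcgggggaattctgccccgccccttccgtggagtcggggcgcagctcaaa
Apoe: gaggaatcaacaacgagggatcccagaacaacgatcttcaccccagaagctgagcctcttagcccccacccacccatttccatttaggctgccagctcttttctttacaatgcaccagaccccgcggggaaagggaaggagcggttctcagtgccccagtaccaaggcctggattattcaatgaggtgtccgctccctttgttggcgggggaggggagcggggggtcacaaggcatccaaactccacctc
The Hmgcs1 window held a sterol response element that began 137 bases before the start, together with 3 CCAAT boxes. Msmo1 held 3 CCAAT boxes, Srebf2 held 1, and the Apoe window held neither motif.

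Windows were found for 24 of the 29 members, and those of Fdps, Fdft1, Sqle, Abcg1 and Npc1 were not. Where a gene had several windows, the nearest to the start in the files was taken. A CCAAT box stood in 12 of 14 synthesis windows (85.7%), in 2 of 3 regulator windows and in 4 of 7 transport windows (57.1%), beside 33.8% of all 32851 windows of this length. A GC box (GGGCGG, either strand) stood in 13 of 14 synthesis windows and in 4 of 7 transport windows, beside 32.7% of all windows. The sterol response element was met in 1 member window, that of Hmgcs1, and in 1.05% of all windows. No match to one motif overlapped a match to another in the members' windows. These are matches of letters and not binding sites. For Pmvk neither a CCAAT box nor a GC box was found. Its nearest RefSeq start lies 453 bases from the start of its gene entry, inside the gene, and the window is the stretch before that RefSeq start.

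The label of the IP libraries was checked on genes of Npy and Sst neurons. All 8 of this list were higher in IP (7 passed after rescaling), and their FPKM summed to 501 and 475 in input replicates 1 and 2 and to 6110 and 6250 in IP replicates 1 and 2. FPKM are fragments per kilobase of transcript, scaled to the number mapped, so that levels of different genes can be compared, but the files give no read totals. Within groups, the log2 values correlated at 0.994 (input) and 0.995 (IP) across genes, which with 2 libraries cannot show whether 1 stood apart. The IP libraries differed in summed markers of glutamatergic neurons, at 238 in replicate 1 and 155 in replicate 2. Across all genes tested with limma, 37.0% were called higher and 33.9% lower in IP at an adjusted p under 0.05 (Benjamini-Hochberg), so a call by itself is common here. Changes are differences in log2(FPKM + 1), which understates the change of low genes, and the median change of all genes was 0.03.

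Most of the cholesterol genes were lower in IP than in input, whether they make or move the sterol. Of the 29 members 22 fell, 1 rose and 6 did not pass, with a median change of -0.45 beside 0.03 for all genes tested. Of 17 synthesis enzymes 12 fell and 1 rose, with changes from -2.66 in Tm7sf2, listed at 0 in IP, and -0.99 in Lss to 0.88 in Pmvk. Transport and turnover genes ranged from -2.10 in Apoe to 0.11 in Abcg1, which did not pass. All 3 regulators fell. In every case the input is whole tissue, in which fewer cells of a type and less RNA per cell cannot be told apart, and ribosome loading and cell type cannot be told apart in IP.

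**Figure D1:**
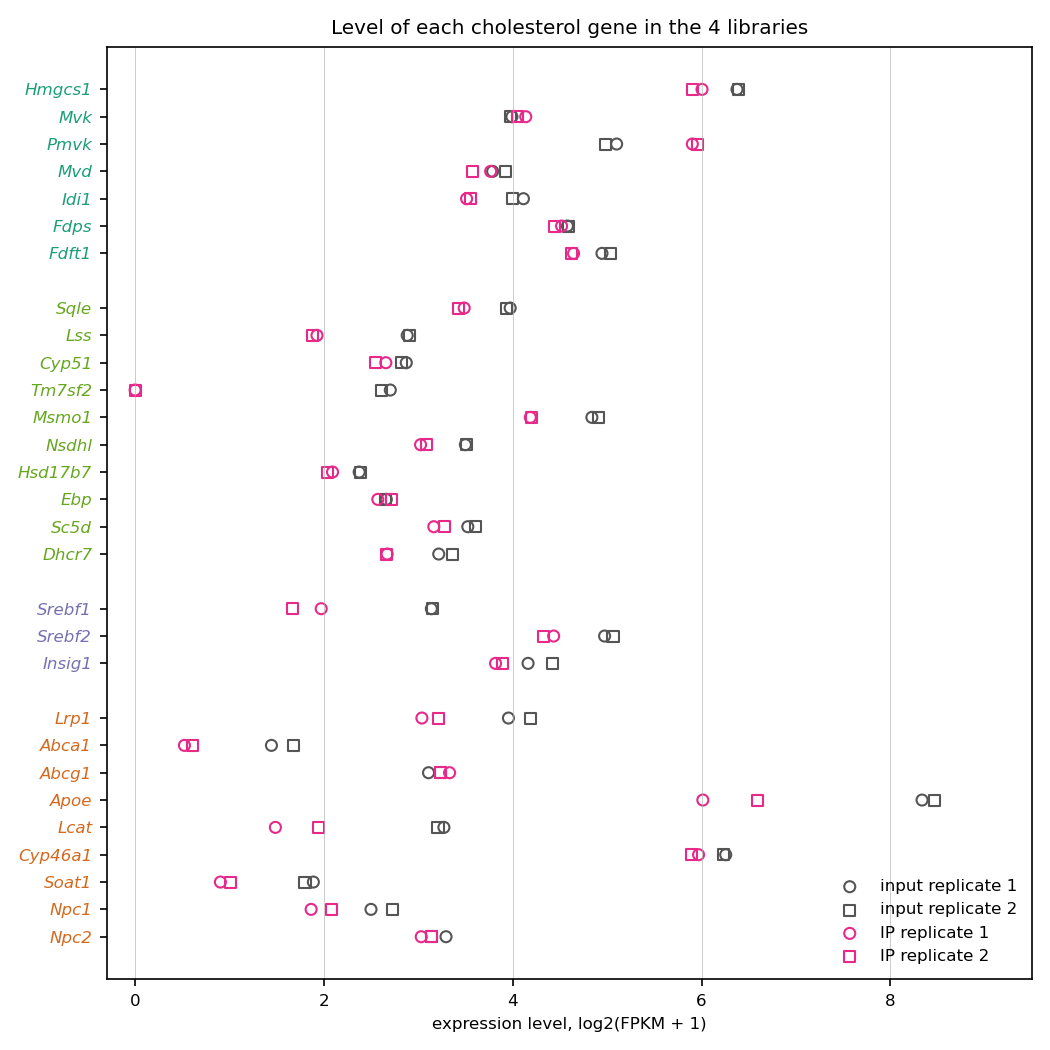
Level of each of the 29 genes, as log2(FPKM + 1), in input (grey) and IP (pink), with circles for replicate 1 and squares for replicate 2. Apoe has the highest level in both groups, Tm7sf2 is at 0 in both IP libraries, and Pmvk is the gene whose IP points lie clearly to the right of input.

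The early enzymes, which lead from acetyl-CoA units to squalene, had a summed level near that of input, in a sum that Pmvk raised. Of 7, 3 fell (42.9%, beside 33.9% of all genes tested), 1 rose (14.3%, beside 37.0%) and 3 did not pass. As single libraries were left out, the median of -0.19 ran from -0.29 without IP replicate 1 to -0.10 without IP replicate 2. The number lower of the 7 was 4 with quantile normalization, 5 with the length trend removed (median -0.37) and 6 after rescaling (median -0.53). Of all genes tested, 30.2%, 29.6% and 53.8% were lower in these settings. Their summed FPKM was 97.8% of input in the replicate 1 pair and 95.0% in the replicate 2 pair. Within it Pmvk rose from 33.3 and 30.7 FPKM in input to 58.8 and 60.9 in IP. The sum was not taken without Pmvk, so it does not show that the other early enzymes kept their level. In the values that follow, replicate 1 comes before replicate 2. Hmgcs1, the synthase that makes HMG-CoA and the most abundant of the 17 enzymes, had an FPKM of 82.0 and 82.8 in input and of 63.2 and 59.0 in IP. Both IP libraries lay below both inputs, a log2 change of -0.43 (SE 0.05; limma, adjusted p = 0.000639). Idi1, the isomerase that supplies the reactive isoprene unit, went from 16.3 and 15.0 FPKM to 10.4 and 10.7, a change of -0.53. Fdft1, squalene synthase and the first enzyme committed to sterols, went from 29.8 and 31.7 to 24.0 and 23.7, a change of -0.35. Some 18.3% of its exon bases are shared with Ctsb on the other strand, and Ctsb rose by 0.55. Idi1 and Fdft1 also did not overlap between groups, though the share of all genes without overlap was not counted.

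Pmvk went the other way. This kinase adds the second phosphate to mevalonate, and its level rose from 33.3 and 30.7 FPKM to 58.8 and 60.9, a rise of 1.87-fold in mean FPKM (log2 change 0.88, SE 0.06; limma, adjusted p = 6.5e-05). The groups did not overlap, but with no share of all genes beside it this does not set Pmvk apart. In all 17 alternatives the change was between 0.56 and 0.94, the lowest of them after rescaling. The kinase before it and the decarboxylase after it did not pass. Mvk, mevalonate kinase, had input values of 14.9 and 14.7 FPKM beside 16.6 and 15.6 in IP (change 0.12, adjusted p = 0.138, limma), with the sign turned after rescaling (-0.21) and with the length trend removed (-0.09). Mvd, which removes a carboxyl group to give the isoprene unit, was at 12.8 and 14.2 in input and 12.6 and 10.9 in IP (change -0.19, adjusted p = 0.0978, limma). Fdps, farnesyl diphosphate synthase at the branch to prenylation, was at 22.9 and 23.1 in input and 21.9 and 20.8 in IP (change -0.10, adjusted p = 0.145, limma), and 26.7% of its exon bases are shared with the annotated gene Gm43738 on the same strand. In mean level Pmvk stood at 32.0 FPKM against 82.4 for Hmgcs1 in input, and at 59.9 against 61.1 in IP.

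Of the 10 enzymes after squalene 9 fell and 1 did not pass, with a median of -0.47, while 33.9% of all genes tested were lower. Tm7sf2 passed the filter on low values through input alone and so had to be lower, and 8 of the other 9 fell. The summed FPKM of all 10 was 64.8% and 63.8% of input in the replicate pairs. Without input replicate 2 the number that fell was 6, the lowest with any library left out, and with quantile normalization or the length trend removed it was 7. With the length trend removed, then, 5 of 7 early and 7 of 10 later enzymes were lower. Sqle, squalene epoxidase, went from 14.7 and 14.3 FPKM to 10.2 and 9.73 (change -0.50). Lss, which closes the ring to lanosterol, went from 6.37 and 6.50 to 2.80 and 2.67, 2.36-fold lower in mean FPKM (log2 change -0.99, SE 0.08; limma, adjusted p = 9.9e-05). It showed the steepest fall among enzymes detected in all libraries, and its IP values lay close together. Msmo1, which oxidizes the methyl groups of the ring, went from 27.6 and 29.1 to 17.2 and 17.3 (change -0.68), and Nsdhl, which acts next at the same positions, from 10.3 and 10.4 to 7.13 and 7.51 (change -0.45). Dhcr7, a reductase of the final steps to cholesterol, went from 8.29 and 9.29 to 5.36 and 5.34 (change -0.62). In each of these 5 genes the groups did not overlap, but without the share of all genes this does not set them apart.

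Smaller falls rested on fewer settings. Cyp51, which removes a methyl group from lanosterol, went from 6.32 and 6.09 FPKM to 5.30 and 4.86 (change -0.24, adjusted p = 0.0301, limma). That call was lost without input replicate 1, input replicate 2 or IP replicate 2 and in 3 other alternatives, with adjusted p of 0.0012 to 0.619 over the 17. Hsd17b7, a sterol ketone reductase, was at 4.18 and 4.23 in input and 3.26 and 3.11 in IP (change -0.32), and leaving out input replicate 1 (adjusted p = 0.0543, limma) or 2 (adjusted p = 0.0596) ended the call, as did 2 other alternatives, within 0.000888 to 0.81 over 16. Sc5d, a sterol desaturase, was at 10.5 and 11.2 in input and 7.96 and 8.67 in IP (change -0.34), and leaving out input replicate 2 ended that call (adjusted p = 0.0631, limma; 0.000536 to 0.0631 over the alternatives). Ebp, the sterol isomerase, overlapped between groups at 5.32 and 5.29 in input and 4.94 and 5.59 in IP (change -0.01), and its change ran from -0.33 after rescaling to 0.20 with quantile normalization.

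For Tm7sf2 the files list 0 in each IP library, while input had 5.51 and 5.11 FPKM. It encodes a sterol reductase that acts after Cyp51, and an exact 0 can be a failed estimate in files of this kind, so no fold is given. Of 8648 genes at FPKM of at least 5 in both inputs, 16 were at 0 in both IP libraries. The adjoining gene Vps51 shares 12.1% of the exon bases of Tm7sf2 on the same strand, and Vps51 rose from 21.6 and 22.5 FPKM to 35.2 and 34.4 (change 0.64). How reads were divided between this pair was not tested. Lbr, whose product can carry out the same reduction, fell from 2.45 and 2.36 FPKM to a mean of 0.894 (change -0.86). Without Tm7sf2, 11 of 16 synthesis genes fell and the median stayed at -0.35.

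**Figure D2:**
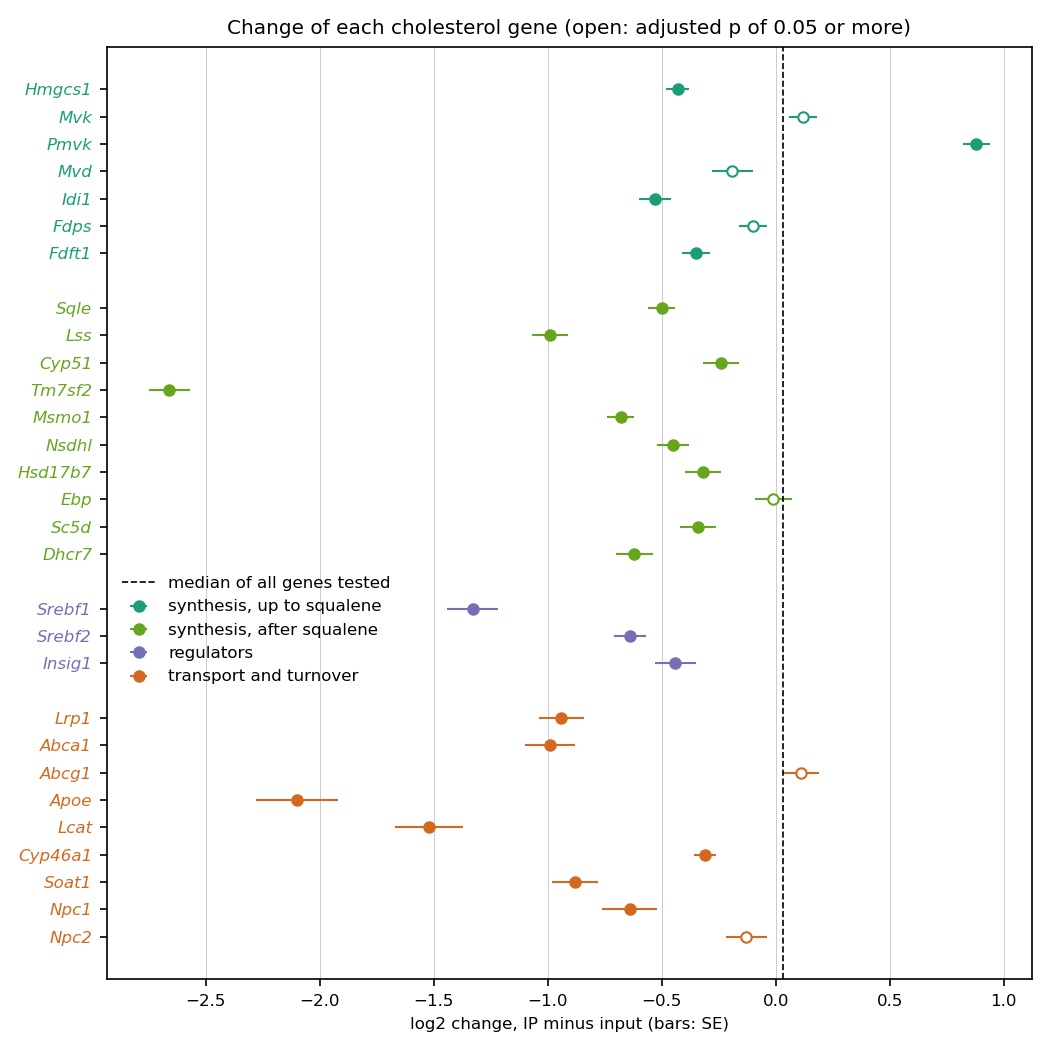
Log2 change of each gene, IP minus input on the log2(FPKM + 1) scale, with SE bars from limma, coloured by role and filled where the adjusted p is under 0.05. The dashed line is the median of all genes tested (0.03). Pmvk (0.88) lies alone on the right, and Tm7sf2 (-2.66), Apoe (-2.10) and Lcat (-1.52) lie farthest to the left.

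The regulators of synthesis fell together with the enzymes. Srebf1, the form better known for fatty acid synthesis, went from 7.80 and 7.89 FPKM to 2.92 and 2.18, 3.08-fold lower in mean FPKM (log2 change -1.33, SE 0.11; limma, adjusted p = 0.000141). Srebf2, the form better known for cholesterol synthesis, went from 30.4 and 32.4 to 20.6 and 19.0, 1.59-fold lower (change -0.64). In IP the mean of Srebf2 was 19.8 FPKM against 2.55 for Srebf1. Insig1, which retains both proteins in the endoplasmic reticulum when sterol is ample, went from 16.9 and 20.4 to 13.1 and 13.8 (change -0.44, adjusted p = 0.00653, limma), a call that ended without the filter on low values (adjusted p = 0.0945; 0.000745 to 0.0945 over the alternatives). The groups did not overlap for any of the 3, again with no share of all genes to set beside it. Of a longer list of 12 sterol sensing genes, 6 rose and 2 fell (1 of these, Nr1h3, passed the filter through input alone), with a median of 0.12. Insig2, the paralog of Insig1, rose from 13.8 and 13.7 to 21.0 and 20.2 FPKM (change 0.55), opposite in sign to Insig1. Nr1h2, an oxysterol receptor, and Rxra, its partner, rose by 0.62 and 0.50, though Rxra missed the threshold once rescaled (adjusted p = 0.102, limma). Mylip, an oxysterol-induced ligase that removes lipoprotein receptors, changed by -1.04. After rescaling 2 of this list were higher (16.7%, beside 17.9% of all genes tested) and 4 lower (33.3%, beside 53.8%), with a median of -0.21.

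Among transport and turnover genes 7 of 9 fell, 0 rose and 2 did not pass, with a median of -0.88. Apoe, the main lipid carrier of the brain, accounted for most of the summed level in input, with 322 and 354 FPKM in input falling to 63.6 and 95.7 in IP. That is 4.24-fold lower in mean FPKM (338 ± 22.6 against 79.7 ± 22.7, SD, n = 2 libraries), with a log2 change of -2.10 (SE 0.18) and an adjusted p of 0.000134 by limma. The IP libraries differed between themselves by more than the inputs did on this scale, with changes of -2.32 and -1.87 in the replicate pairs, but both lay far below input. Lcat, which esterifies cholesterol on those particles, went from 8.65 and 8.24 to 1.80 and 2.84, 3.63-fold lower (change -1.52), with IP replicate 2 again the higher. Abca1, which loads cholesterol onto apolipoprotein, went from 1.72 and 2.19 to 0.436 and 0.524 (change -0.99). Abcg1, another exporter, overlapped between the groups at 7.62 and 8.44 in input and 9.06 and 8.43 in IP (change 0.11, adjusted p = 0.254, limma), with -0.21 after rescaling. The list thus held exporters with unlike values, although their difference was not tested.

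Uptake and lysosomal release were lower in part. Lrp1, the large receptor that takes up apolipoprotein E, went from 14.5 and 17.2 FPKM to 7.21 and 8.28, 2.05-fold lower (change -0.94). Npc1, the membrane protein that passes cholesterol out of the lysosome, went from 4.65 and 5.61 to 2.64 and 3.24 (change -0.64), a call that also ended without that filter (adjusted p = 0.0697, limma; 0.00026 to 0.0697 over the alternatives). Npc2, its soluble partner in the lysosome, did not pass, at 8.80 and 7.78 in input and 7.17 and 7.82 in IP (change -0.13), and its groups overlapped. Soat1, which stores cholesterol as ester inside the cell, went from 2.70 and 2.48 to 0.870 and 1.02 (change -0.88). Cyp46a1, the neuronal enzyme that oxidizes cholesterol for export from the brain, kept a high level, at 75.4 and 74.1 in input and 61.6 and 58.3 in IP, 1.25-fold lower (change -0.31, SE 0.05; limma, adjusted p = 0.00195). Apoe had the higher mean in both groups, at 338 FPKM against 74.7 for Cyp46a1 in input and at 79.7 against 59.9 in IP.

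Markers of other cells were lower in IP as well, and their part in these results was not tested. Of 12 astrocyte markers 11 fell, and their summed FPKM was 367 and 403 in input and 128 and 155 in IP, 34.8% and 38.4% of input, with Slc7a10 at 0 in both IP libraries. All 15 oligodendrocyte lineage markers fell, from sums of 607 and 569 to 124 and 142 with none at 0 in both, and 1 astrocyte and 2 oligodendrocyte markers passed the filter through input alone. Microglial markers summed to 62.2 and 56.4 in input and 9.80 and 9.85 in IP, also with none at 0. All 10 were called lower, but 9 of them passed the filter through input alone and so had to be lower. The 10 vascular markers summed to 36.4 and 36.7 in input and 5.39 and 6.89 in IP, and 6 of the 8 tested, all called lower, likewise passed through input alone. Markers of glutamatergic neurons fell in 6 of 8 genes, from 390 and 401 to 238 and 155, but 2 of 8 were called without the filter on low values and 8 of 8 without IP replicate 1. Their median change of -1.06 was -1.26 without IP replicate 1 and -0.83 without IP replicate 2. GABAergic markers rose in all 8, from 302 and 305 to 1240 and 1350. Apoe in IP was at 23.6% of input in mean FPKM and Lcat at 27.5%, while Cyp46a1 was at 80.2% and Abcg1 at 109%.

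Set beside each other, synthesis and transport differed in size more than in direction, and the size rested on the processing. The share of members called lower was 70.6% for synthesis and 77.8% for transport and turnover, beside the 33.9% of all genes tested. Summed FPKM of the synthesis genes was 311 and 314 in input and 272 and 266 in IP, or 87.3% and 84.9% of input in the replicate pairs. For transport and turnover the sums were 446 and 480 in input and 154 and 186 in IP, or 34.6% and 38.8%, and 73.2% and 71.7% without Apoe. The synthesis sums include Pmvk, which rose from 33.3 and 30.7 FPKM in input to 58.8 and 60.9 in IP. They were not taken without it, so the values without Apoe have no counterpart for synthesis. The full synthesis sums hold Pmvk, and the full transport sums hold Apoe. The gap between them therefore does not show that the other synthesis genes kept more of their level than the other transport genes. The median change was higher for synthesis by 0.53 (0.56 and 0.37 in the replicate pairs), a value given without a test. It was 0.04 with a pseudocount of 5, 0.09 with the length trend removed, 0.11 with quantile normalization and 0.24 with a filter at FPKM of 5, and up to 0.63 in the others. Both Tm7sf2 and Abca1 passed the filter through input alone and so had to be lower. Soat1 reached FPKM of 1 in a single IP library, so the filter did not fix its direction. Without Abca1, 6 of 8 transport genes fell (median -0.76).

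**Figure D3:**
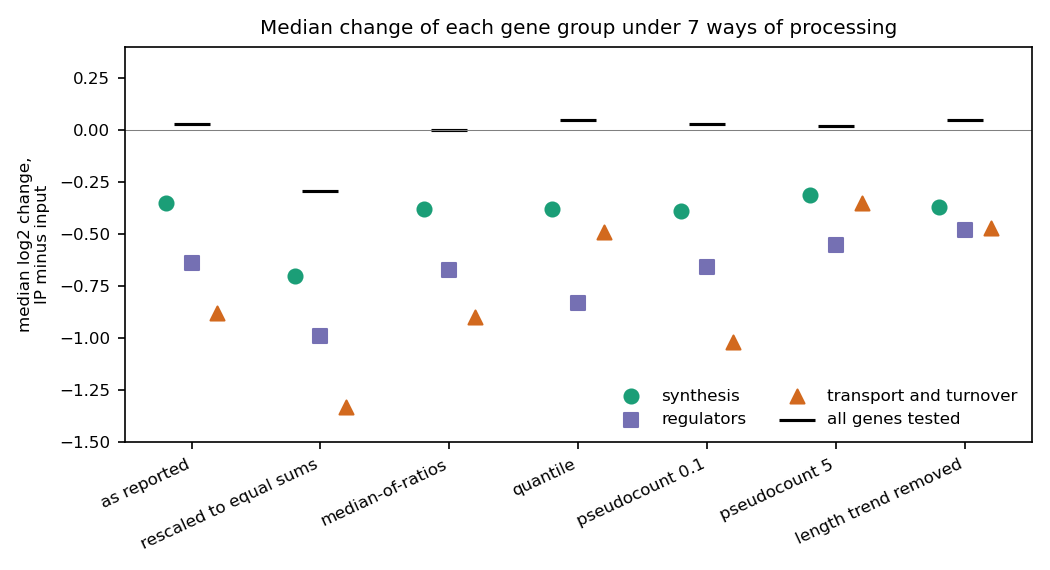
Median log2 change, IP minus input, of the synthesis, regulator and transport groups and of all genes tested, under 7 ways of processing. All 3 group medians lie below the median of all genes in each setting, while the gap between synthesis and transport goes from 0.53 as reported to 0.04 with a pseudocount of 5.

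Scaling moved all genes. When the FPKM of each library were made to add up to 1000000, the median of all genes was -0.29, with 17.9% called higher and 53.8% lower. Under it 1 synthesis gene was higher and 16 lower, and 8 transport genes were lower. Relative to the median of all genes, synthesis stood at -0.38 as reported and at -0.40 after rescaling, and transport at -0.91 and -1.03.

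Transcript length was unequal between the groups and went with the change over all genes. The median length was 2758 bases for synthesis, 4299 for the regulators and 5224 for transport and turnover, beside 3188 for all genes tested. Across all genes the median change was 0.35 for transcripts up to 2000 bases, 0.08 up to 4000, -0.17 up to 8000 and -0.50 beyond. Lrp1, Abca1 and Soat1, at 14888, 10262 and 8371 bases, were the members in the longest range. With the length trend removed in each library, 37.1% of all genes were called higher and 29.6% lower, and among the members 12 synthesis genes were lower and 1 higher, and 7 transport genes lower and 1 higher. The higher transport gene was Abcg1, at 0.32 (adjusted p = 0.0083, limma). Lrp1 then changed by -0.32 and Abca1 by -0.54, while Apoe and Lcat, with short transcripts of 1408 and 1342 bases, changed by -2.35 and -1.80. Mvd and Fdps, also short, passed downward at -0.37 each, and Pmvk stayed higher at 0.59.

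**Figure D4:**
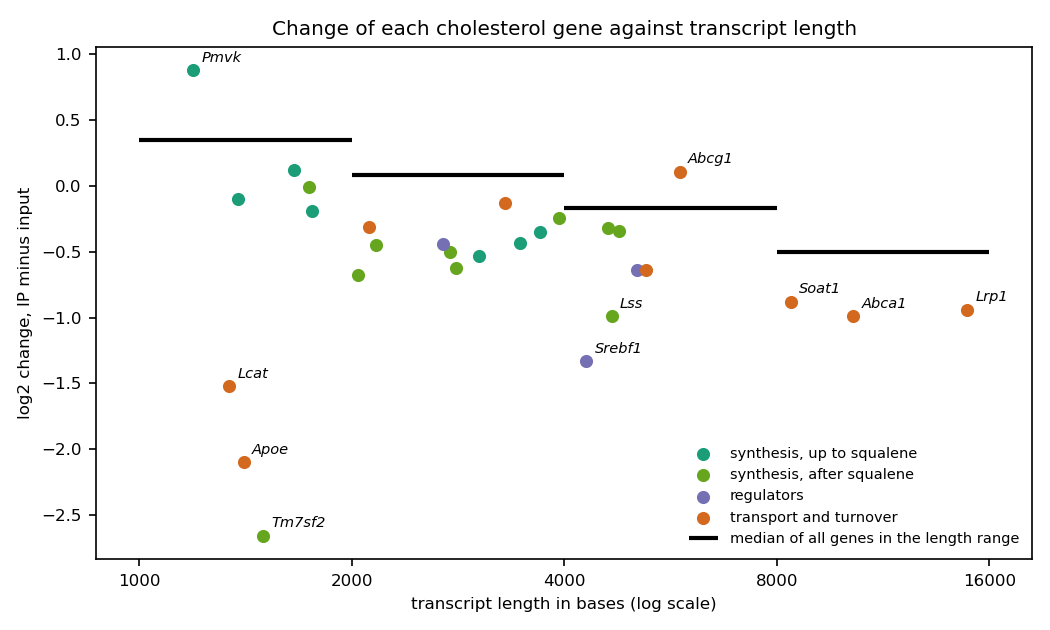
Log2 change of each of the 29 genes against transcript length on a log axis, with black lines for the median of all genes in 4 length ranges (the first also takes in transcripts shorter than the axis shows). Apoe, Lcat and Tm7sf2 lie far below the line of their length range, Pmvk lies above it, and Abcg1 is above the line of its range.

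Genes next to the pathway did not all move with it. Among 12 tested genes of the isoprenoid branch, which takes farnesyl and geranyl units to prenylated proteins, dolichol and coenzyme Q, 6 rose and 1 fell, with a median of 0.25. Fnta, a subunit of the prenyl transferases, rose from 26.8 and 25.2 FPKM to 56.2 and 53.0 (change 1.04), and Rabggtb, a subunit of the enzyme that prenylates Rab proteins, rose by 0.68. Pdss2, which makes the tail of coenzyme Q, rose by 0.45 but missed the threshold once rescaled (adjusted p = 0.093, limma), and Pggt1b changed by -0.45. After rescaling 2 genes of this branch were higher (16.7%, beside 17.9% of all genes tested) and 4 lower (33.3%, beside 53.8%), with a median of -0.08. Of 11 tested fatty acid synthesis genes, many of them known targets of Srebf1, 7 fell and 1 rose, with a median of -0.53. That is 63.6% lower and 9.09% higher, beside 33.9% and 37.0% of all genes tested. The desaturase genes Scd1, Fads2 and Scd2 changed by -1.79, -1.72 and -1.18, and the elongase gene Elovl5 by -0.81. Scd2 was the most abundant of these 4, at 105 and 108 FPKM in input and a mean of 46.3 in IP.

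A longer list of sterol transport and oxidation genes fell in most members. Of 26 tested, 16 fell (61.5%, beside 33.9% of all genes tested) and 3 rose (11.5%, beside 37.0%). Of the 16, 5 passed the filter through input alone and had to be lower, Pltp, Tspo and Cav1 among them, and 11 of the other 21 fell. Apod, a lipid-binding apolipoprotein, went from 33.1 and 35.9 FPKM to 5.24 and 6.74 (change -2.35). Pltp, a phospholipid transfer protein, had 8.69 and 7.57 FPKM in input and a listed 0 in each IP library. Tspo, a mitochondrial protein known in steroid-making and glial cells, and Cav1, a caveolar protein of vascular cells, changed by -1.28 and -1.16. With the length trend removed 13 of this list were lower and 4 higher, with a median of -0.18. Among 7 further genes of synthesis 1 rose (14.3%, beside 37.0% of all genes tested) and 2 fell (28.6%, beside 33.9%), with a median of -0.02. After rescaling 1 was higher (beside 17.9% of all genes) and 6 lower (85.7%, beside 53.8%), with a median of -0.34. With quantile normalization 2 were higher (28.6%, beside 35.3%) and 4 lower (57.1%, beside 30.2%). Hsd17b12, a reductase of fatty acid elongation, was the gene that rose (change 0.73), and Por, the electron donor of Cyp51 and Sqle, changed by -0.23.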

How the data were processed

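Libraries were made from 200 ng of RNA with a TruSeq RNA kit and read as 100 bp single ends, per the labels' protocols and the series' design text. TopHat with its defaults placed the reads on mm10 with the iGenomes UCSC annotation, and Cufflinks gave gene FPKM with confidence limits for each library, made and deposited by the authors, per the design text and the file headers. Tool versions and use of strand are not given in the sources used here. Reads of genes with shared exons cannot be told apart. The files give no read counts, so depth is unknown. The source description of IP replicate 2 says replicate 1, and its title was followed.

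Of 24490 entries, 8 with a failed status and 1286 small RNA entries were left out, and the highest entry was kept for each symbol. The 12416 genes that reached an FPKM of 1 in 2 or more libraries were tested on log2(FPKM + 1) with lmFit and eBayes with trend in limma 3.58.1 (R 4.3.3), as a two-sided test called at an adjusted p (Benjamini-Hochberg) under 0.05. The p-values measure the spread between 2 pools per group. On simulated data for this comparison with 12416 genes, 100% of log2 changes of 1 and 99% of 0.5 were recovered, and 5.7% of calls were false. The simulation changed 100 genes at each size, with noise taken from the inputs alone and no length trend. Far more genes were called in the data, so 5.7% is not the error rate of the reported calls. IP and input with the same number come from corresponding samples per the design text, and their deviations from the group means correlated at 0.162. The main fit did not use this pairing, so its p-values are unpaired. The numbers were taken as pairs for the values per replicate pair and for the block alternative. No values were identical between replicates at FPKM of at least 5.

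Transcript lengths are those of the longest coding transcript in GENCODE M21, matched for 99.4% of the genes tested, and exon overlap was read from the same annotation without regard to strand. For the length alternative, a loess trend on log2 length was removed in each library. Starts are written 1-based in mm10. Members and lists were chosen with earlier results of these data known. All 29 members are named, and of each further list the counts with up to 4 of the largest changes past the threshold. Ctsb and Vps51 were named after their values were seen. Python 3.11.15 with matplotlib 3.10.9, pandas 2.3.3 and numpy 2.4.6 made the summaries and plots.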

Additional observations from a re-analysis of the deposited data

How the results depend on the processing

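Of 23 members that passed, 18 kept their direction and call in all 17 alternatives (16 for Abca1 and Soat1, which a filter at FPKM of 5 left out), and none of the 23 changed sign. The alternatives were other pseudocounts, filters, scalings, eBayes options, summed entries, a replicate block, a length correction, each library left out and, chosen after seeing the data, small RNA genes kept. The filters, eBayes options, summed entries, replicate block and kept small RNA genes left each member's change as it was, so no sign could turn there. Tm7sf2 and Abca1, both among the 18, passed the main filter through input alone and so had to be lower. Signs turned among members that had not passed, in Mvk after rescaling (-0.21) and with the length trend removed (-0.09), in Ebp with quantile normalization (0.20) and without IP replicate 1 (0.06), and in Abcg1 after rescaling (-0.21). With the replicate number as a block, 4746 genes were higher and 4367 lower, and 1 synthesis gene was higher and 12 lower. The block changed no call of a member. Rescaling gave 2226 higher and 6684 lower genes, and a filter at FPKM of 5 gave 2437 lower, with fewer genes tested. That filter left 4 transport genes lower of 6 tested, and with the length trend removed 1 transport gene was higher. The excess of the synthesis over the transport median was 0.04 with a pseudocount of 5, 0.24 with the filter at 5, 0.11 with quantile normalization and 0.09 with the length trend removed, and the cause was not tested. With 1 library left out, 9 to 13 synthesis genes were lower. Read totals were not in the files used, so low members such as Abca1 and Soat1 have no counting error beyond the authors' limits.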
